A study of Homo sapiens with 12 samples.

Results

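The 9 genes described here encode parts of the MHC class I antigen presentation pathway, namely HLA-B, HLA-C, HLA-E, B2M, TAP1, TAP2, PSMB8, PSMB9 and NLRC5. They were chosen by symbol, with earlier results of these data known, from the 24302 features of the count table. All 9 passed the filter on low counts that left 14792 genes for testing. The libraries came from KYSE150, an established cell line of human esophageal squamous cell carcinoma. Its cells carried 1 of 4 constructs, with 3 libraries each: GFP-TFAP2β-Mut_IDR3 (written Mut_IDR3), GFP-TFAP2β-ΔIDR3 (dIDR3, the Δ being the common mark of a deletion), GFP-TFAP2β of normal sequence (WT) and GFP alone. TFAP2β belongs to the AP-2 transcription factors, IDR stands for a stretch of protein without fixed structure (intrinsically disordered), and the series describes both altered forms as deficient in phase separation. All 4 groups share the cell line and the GFP tag, no agent is named, and separate cultures are not mentioned for the replicates in the labels, so that p-values reflect the spread of these 12 libraries only, part or all of which may be technical.

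Nearly every nucleated cell displays peptides from its own proteins on class I molecules, where CD8+ T cells read them. The proteasome cuts the proteins, the TAP1-TAP2 transporter carries the peptides into the endoplasmic reticulum, and there they are loaded on a heavy chain (such as HLA-B, HLA-C or HLA-E) paired with the light chain B2M. Many of these genes respond to interferon through IRF1 and STAT proteins and are switched on together by NLRC5, and lower class I expression is a well known route by which carcinomas escape T cells.

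Of the 9 genes, 8 rose in WT cells relative to GFP cells, by 1.37-fold (TAP2) to 2.85-fold (B2M), and the immunoproteasome subunit PSMB8 fell, where 27.7% of all tested genes were called higher and 27.1% lower. With a trend over GC content removed from each library, the 8 rises ran from log2 0.35 (NLRC5) to 2.03 (B2M). Relative to WT cells, all but PSMB8 were lower in Mut_IDR3 cells (20.9% of all genes) and in dIDR3 cells (25%), and PSMB8 was higher in each (23.2% and 27.2% of all genes, in that order). In dIDR3 cells 5 of the genes were also called below GFP cells, against 13.4% of all genes. In Mut_IDR3 cells 1 was, near the 9.85% of all genes, and that count ran from 0 to 3 over the alternatives. The summed level of the 9 genes was 886 ± 20.4 CPM in Mut_IDR3 cells, 779 ± 32.0 CPM in dIDR3 cells, 1945 ± 72.8 CPM in WT cells and 972 ± 15.2 CPM in GFP cells (SD, n = 3 each), where CPM is the count of a gene relative to the scaled total of its library.

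The libraries held 30.7 to 43.5 M counts, and replicates of a group correlated at 0.977 or more across genes in log2 CPM. TFAP2B RNA, the check of the constructs, was at 702 ± 25.9 CPM in Mut_IDR3 cells, 704 ± 62.8 CPM in dIDR3 cells, 280.3 ± 45.6 CPM in WT cells and 0.124 ± 0.142 CPM in GFP cells (SD, n = 3 each). Both mutants thus held more TFAP2B RNA than WT, and the altered sequence and that difference in level cannot be told apart in any comparison of a mutant with WT. Mitochondrially encoded genes took 8.36 ± 0.235% of the counts in Mut_IDR3 cells, 7.72 ± 0.0634% in dIDR3 cells, 5.75 ± 0.356% in WT cells and 10.3 ± 0.406% in GFP cells, a share that moved with the groups and whose part in the results was not tested, although leaving those genes out of the library sizes changed no call of the 9 genes between WT and any other group. All 12 squamous markers were measured, and their summed level ran from 6357 to 6543 CPM in Mut_IDR3 cells, 5418 to 5689 CPM in dIDR3 cells, 8055 to 9171 CPM in WT cells and 6244 to 6447 CPM in GFP cells. In WT over GFP, 6 of these markers were higher (27.7% of all genes), led by KRT14 (log2 1.83), KRT17 (1.61) and CDH1 (1.03). Another 5 were lower (27.1% of all genes), namely KRT5 (-0.24), TP63 (-0.36), DSC3 (-0.40), TRIM29 (-0.42) and DSG3 (-0.46). Of 9 leukocyte markers 2 passed the filter, PTPRC, CD3D and MS4A1 were at 0 in all libraries, and the summed level, mostly CD68, was 50.1 to 56.5 CPM in Mut_IDR3 cells, 49.5 to 50.3 CPM in dIDR3 cells, 81.7 to 102.6 CPM in WT cells and 69.5 to 73.7 CPM in GFP cells. The part of these marker levels in the results was not tested. In such bulk samples, fewer cells that express a gene and less RNA per cell cannot be told apart.

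Of the 9 genes, 7 lie on chromosome 6. Promoters of 5 of these genes and of B2M are shown, because HLA-C, TAP1, TAP2 and PSMB9 rose in WT cells while PSMB8 of the same region fell. In the windows below (RefSeq, GRCh38.p14, 250 bases ending just before the transcript start, printed on the strand of the gene), capitals mark matches on either strand to an interferon response element (GAAA, any 2 bases, GAAA), a STAT element (TTC, any 3 bases, GAA), a kappa B element (GGG, any 5 bases, CC) or a Y box (CCAAT), and matches that overlap run together.
HLA-C (chr6:31272093-31272342, minus strand): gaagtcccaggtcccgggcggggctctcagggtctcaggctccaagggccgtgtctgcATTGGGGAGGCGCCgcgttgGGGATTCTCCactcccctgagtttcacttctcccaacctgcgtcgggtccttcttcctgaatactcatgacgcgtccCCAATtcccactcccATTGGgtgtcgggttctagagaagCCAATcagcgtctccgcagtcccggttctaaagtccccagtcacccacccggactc
B2M (chr15:44711267-44711516, plus strand): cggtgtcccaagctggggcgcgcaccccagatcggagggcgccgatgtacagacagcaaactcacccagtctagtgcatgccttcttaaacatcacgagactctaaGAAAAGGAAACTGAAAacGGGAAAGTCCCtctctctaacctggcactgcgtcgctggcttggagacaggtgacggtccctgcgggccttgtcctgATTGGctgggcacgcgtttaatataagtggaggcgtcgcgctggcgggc
TAP1 (chr6:32853705-32853954, minus strand): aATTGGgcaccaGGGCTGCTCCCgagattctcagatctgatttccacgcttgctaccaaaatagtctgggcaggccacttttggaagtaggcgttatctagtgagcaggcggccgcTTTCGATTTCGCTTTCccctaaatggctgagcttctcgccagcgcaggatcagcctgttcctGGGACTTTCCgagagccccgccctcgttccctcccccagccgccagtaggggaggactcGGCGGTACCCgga
TAP2 (chr6:32838740-32838989, minus strand): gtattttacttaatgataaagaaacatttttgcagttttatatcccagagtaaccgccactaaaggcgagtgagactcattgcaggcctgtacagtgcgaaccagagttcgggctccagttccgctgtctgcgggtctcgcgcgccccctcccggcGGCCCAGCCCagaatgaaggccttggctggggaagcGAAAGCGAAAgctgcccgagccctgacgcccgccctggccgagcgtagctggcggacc
PSMB9 (chr6:32853942-32854191, plus strand): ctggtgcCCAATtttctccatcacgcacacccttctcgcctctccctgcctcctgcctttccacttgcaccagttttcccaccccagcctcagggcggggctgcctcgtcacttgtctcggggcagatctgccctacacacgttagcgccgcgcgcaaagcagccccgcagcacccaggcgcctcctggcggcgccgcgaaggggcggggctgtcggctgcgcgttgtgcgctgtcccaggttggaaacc
PSMB8 (chr6:32844048-32844297, minus strand, the second of 2 annotated starts): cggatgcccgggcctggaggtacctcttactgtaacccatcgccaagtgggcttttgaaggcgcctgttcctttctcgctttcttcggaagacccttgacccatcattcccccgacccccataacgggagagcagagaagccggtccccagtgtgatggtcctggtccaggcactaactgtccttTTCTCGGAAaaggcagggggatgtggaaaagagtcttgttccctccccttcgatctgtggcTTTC

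The table held promoters of 7 of the 9 genes, with 2 starts each for TAP1 and PSMB8, and none for HLA-E and NLRC5. Counting 50 bases after the start as well, the interferon response element was found in B2M and in the first TAP1 window, with a pair of overlapping matches in each, in TAP2, and in the second PSMB8 window, where it spans the start. It was found in 3.57% of 35116 such windows of all genes. The STAT element, in 7.66% of all windows, was found in the second TAP1 window and in the second PSMB8 window. The Y box, in 34.6% of all windows, had 3 matches in HLA-B, 4 in HLA-C and 1 each in B2M, TAP1 and PSMB9, and the kappa B letters, in 58.7% of all windows, are too common to set any window apart. The AP-2 letters GCCNNNGGC, in 23.2% of all windows, occurred in PSMB9 alone, 3 to 11 bases after its start and so outside the stretch printed. The promoters of TAP1 and PSMB9 face away from each other with starts 488 bases apart. Matches are matches of letters and were not read as bound sites.

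The classical heavy chains carry the peptide groove that T cells read. HLA-C (ENSG00000204525, chromosome 6, 31268749 to 31272130, minus strand) had 88.1, 97.6 and 93.3 CPM in Mut_IDR3 cells, 86.4, 72.2 and 80.8 CPM in dIDR3 cells, 208, 183 and 207 CPM in WT cells and 95.1, 94.9 and 90.1 CPM in GFP cells. Every WT library lay far above the 9 others, while the Mut_IDR3 and GFP libraries overlapped. The log2 fold change was 1.09 (SE 0.07) for WT over GFP, with an adjusted p of 1.15e-08 in edgeR's quasi-likelihood test with Benjamini-Hochberg adjustment over all tested genes, which is the test behind every adjusted p here. It was -1.10 for Mut_IDR3 over WT (adjusted p = 1.54e-08) and -1.32 for dIDR3 over WT (adjusted p = 1.74e-09).

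HLA-B (ENSG00000234745, chromosome 6, 31269491 to 31357188, minus strand) had the lowest level of the 3 heavy chains among the 9 genes. It had 4.34, 4.85 and 3.50 CPM in Mut_IDR3 cells, 3.59, 2.78 and 3.44 CPM in dIDR3 cells, 8.54, 8.58 and 7.27 CPM in WT cells and 3.68, 4.47 and 3.63 CPM in GFP cells. The WT libraries again stood above all others, and the remaining groups lay close together. HLA-B rose 2.07-fold in WT over GFP (log2 1.05, SE 0.17, adjusted p = 9.61e-05), and it was lower than WT by a log2 change of -0.94 in Mut_IDR3 cells (adjusted p = 0.000411) and -1.31 in dIDR3 cells (adjusted p = 1.53e-05). HLA-B and HLA-C are closely related genes and highly variable between people. Their annotated exons also share 35 bases on the same strand, so that the split of reads between them is uncertain.

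HLA-E, a conserved heavy chain that presents leader peptides of other class I chains and is read by NKG2A receptors of natural killer cells, lies on chromosome 6 (ENSG00000204592, 30489467 to 30494205, plus strand). It had 321, 324 and 305 CPM in Mut_IDR3 cells, 274, 254 and 261 CPM in dIDR3 cells, 565, 524 and 592 CPM in WT cells and 365, 364 and 342 CPM in GFP cells. These 4 groups did not overlap in any pair, with WT at the top and dIDR3 at the bottom. HLA-E rose in WT over GFP by 0.65 on the log2 scale (SE 0.05, adjusted p = 1.46e-07), and the log2 fold change was -0.82 for Mut_IDR3 over WT (adjusted p = 1.96e-08) and -1.09 for dIDR3 over WT (adjusted p = 7.35e-10).

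B2M, the light chain shared by all class I molecules, showed the largest rise of the 9 genes. This gene (ENSG00000166710, chromosome 15, 44711487 to 44718877, plus strand) had 250, 253 and 254 CPM in Mut_IDR3 cells, 244, 214 and 223 CPM in dIDR3 cells, 839, 969 and 708 CPM in WT cells and 280, 298 and 305 CPM in GFP cells. The WT libraries were spread widely but the lowest of them was still far above every other library. B2M rose 2.85-fold in WT over GFP (log2 1.51, SE 0.09, adjusted p = 4.13e-09), and its log2 fold change was -1.73 for Mut_IDR3 over WT (adjusted p = 1.15e-09) and -1.88 for dIDR3 over WT (adjusted p = 4.45e-10).

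**Figure D1:**
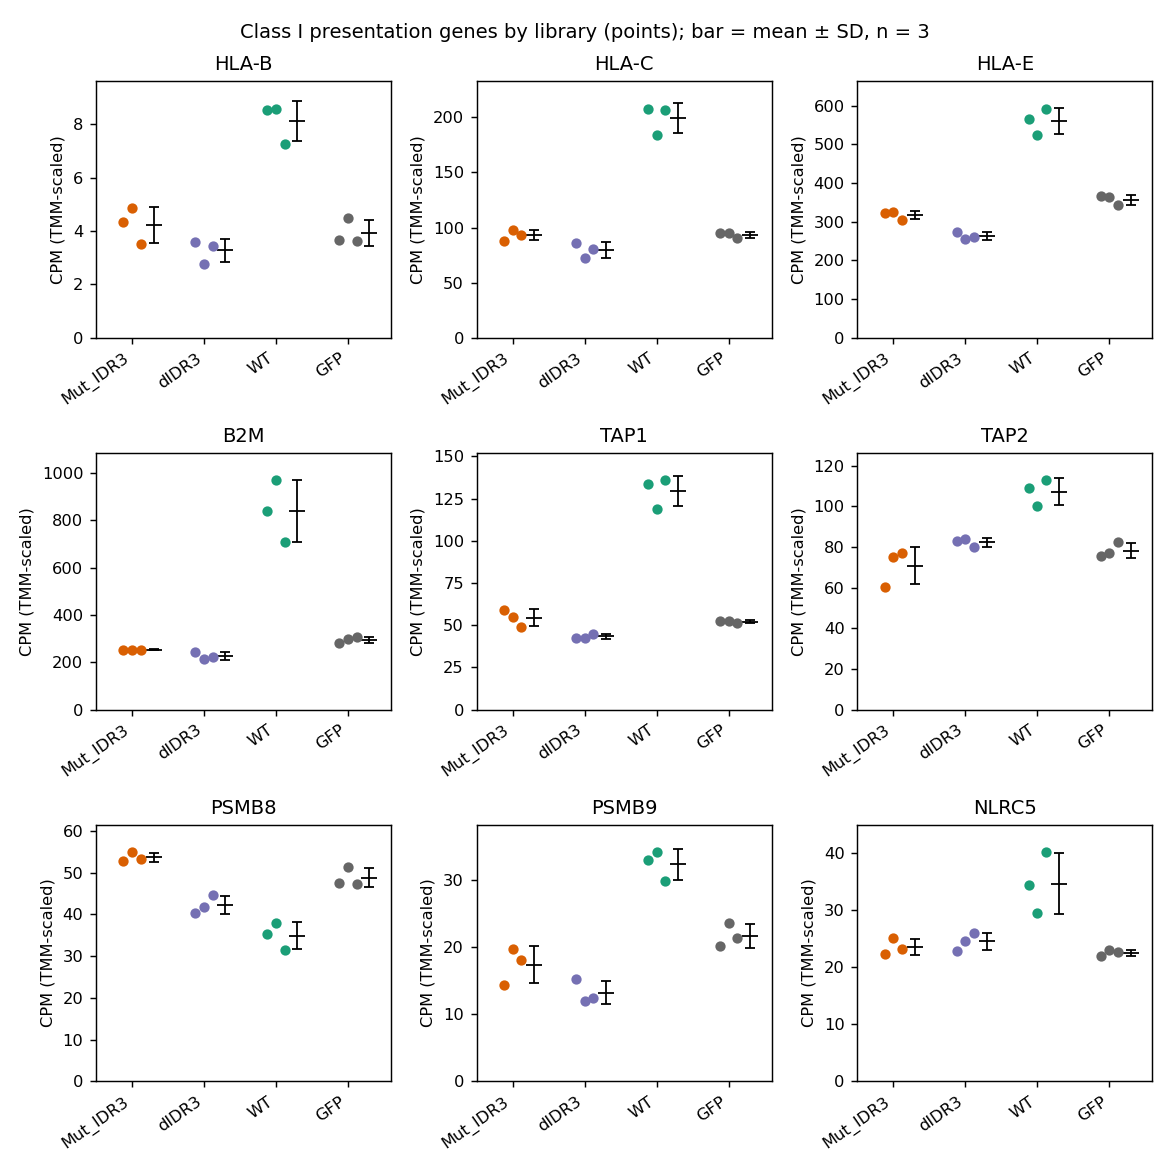
Level of each of the 9 genes (vertical axes, CPM from 0, each panel with its own scale) in every library (points) of the Mut_IDR3, dIDR3, WT and GFP groups, with the mean ± SD of 3 libraries beside them. The WT points sit above the GFP points in 8 panels and below them for PSMB8, where WT averaged 34.9 CPM and GFP 48.8 CPM.

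TAP1 and TAP2 form the peptide transporter as a heterodimer, yet their RNAs changed by different amounts. TAP1 (ENSG00000168394, chromosome 6, 32845209 to 32853978, minus strand) had 59.0, 55.1 and 48.9 CPM in Mut_IDR3 cells, 42.6, 42.3 and 44.9 CPM in dIDR3 cells, 134, 119 and 136 CPM in WT cells and 52.4, 52.7 and 51.4 CPM in GFP cells. WT libraries were far above all others, and the dIDR3 libraries lay below those of both Mut_IDR3 and GFP. TAP1 rose 2.48-fold in WT over GFP (log2 1.31, SE 0.07, adjusted p = 2.61e-09), with log2 fold changes of -1.26 for Mut_IDR3 over WT (adjusted p = 5.4e-09) and -1.58 for dIDR3 over WT (adjusted p = 4.07e-10).

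TAP2 (ENSG00000204267, chromosome 6, 32821833 to 32838780, minus strand) had 60.2, 75.1 and 77.3 CPM in Mut_IDR3 cells, 82.9, 83.9 and 79.9 CPM in dIDR3 cells, 109, 100 and 113 CPM in WT cells and 75.5, 76.9 and 82.2 CPM in GFP cells. WT was highest without overlap, and the other 3 groups ran close together. The rise in WT over GFP was 1.37-fold (log2 0.46, SE 0.08, adjusted p = 0.000211), with log2 fold changes of -0.60 for Mut_IDR3 over WT (adjusted p = 3.49e-05) and -0.38 for dIDR3 over WT (adjusted p = 0.000977). Within a library, TAP1 counts were 78.2 ± 17.8% of TAP2 counts in Mut_IDR3 cells, 52.7 ± 3.09% in dIDR3 cells, 120.7 ± 1.91% in WT cells and 66.8 ± 3.80% in GFP cells (SD, n = 3 each). TAP1 counts thus exceeded TAP2 counts in WT cells on average and were fewer in the means of the other groups. The longest annotated transcripts have 2959 (TAP1) and 5684 bases (TAP2), so that 100% does not mark equal levels. Per kilobase, TAP1 and TAP2 averaged 18.4 and 12.5 CPM in Mut_IDR3 cells and 14.6 and 14.5 in dIDR3 cells, where libraries overlapped. They averaged 43.8 and 18.9 in WT cells and 17.6 and 13.8 in GFP cells. An annotated gene on the same strand, AL669918.1, overlaps 2064 exonic bases of TAP2 and had 753 counts in the 12 libraries together.

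PSMB8 and PSMB9 encode catalytic subunits that replace the constitutive subunits PSMB5 and PSMB6 in the immunoproteasome, a form that yields more peptides suited to class I grooves. They neighbour each other and TAP1, but moved in opposite directions in WT over GFP and in both mutants over WT. PSMB9 (ENSG00000240065, chromosome 6, 32844136 to 32859585, plus strand) had 14.3, 19.7 and 18.1 CPM in Mut_IDR3 cells, 15.2, 12.03 and 12.4 CPM in dIDR3 cells, 33.0, 34.1 and 29.8 CPM in WT cells and 20.1, 23.6 and 21.3 CPM in GFP cells. WT was above GFP, and GFP above both mutants, which overlapped each other. PSMB9 rose 1.49-fold in WT over GFP (log2 0.57, SE 0.12, adjusted p = 0.000811), with log2 fold changes of -0.89 for Mut_IDR3 over WT (adjusted p = 3.38e-05) and -1.29 for dIDR3 over WT (adjusted p = 6.52e-07).

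PSMB8 (ENSG00000204264, chromosome 6, 32840717 to 32844703, minus strand) had 52.7, 54.9 and 53.3 CPM in Mut_IDR3 cells, 40.5, 41.9 and 44.7 CPM in dIDR3 cells, 35.4, 37.9 and 31.5 CPM in WT cells and 47.5, 51.4 and 47.4 CPM in GFP cells. The 4 groups did not overlap in any pair, and here WT was the lowest and Mut_IDR3 the highest. The log2 fold change was -0.48 for WT over GFP (SE 0.08, adjusted p = 8.41e-05), 0.62 for Mut_IDR3 over WT (adjusted p = 1.54e-05) and 0.28 for dIDR3 over WT (adjusted p = 0.00704). Without the dIDR3 library of replicate 3, dIDR3 over WT was no longer called, with a log2 fold change of 0.21 and an adjusted p of 0.0627 by the same edgeR test. The exons of PSMB8 and PSMB9 overlap by 139 bases on opposite strands, and the strand setting of the counting was not given in the sources used here, so that reads of the overlap cannot be assigned. A further annotated gene, PSMB8-AS1, is not among the counted features. It overlaps 618 exonic bases of PSMB8 and 456 of TAP1 on the opposite strand, and 174 of PSMB9 on the same strand. How many counts of PSMB8, PSMB9 and TAP1 come from its reads is not known.

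**Figure D2:**
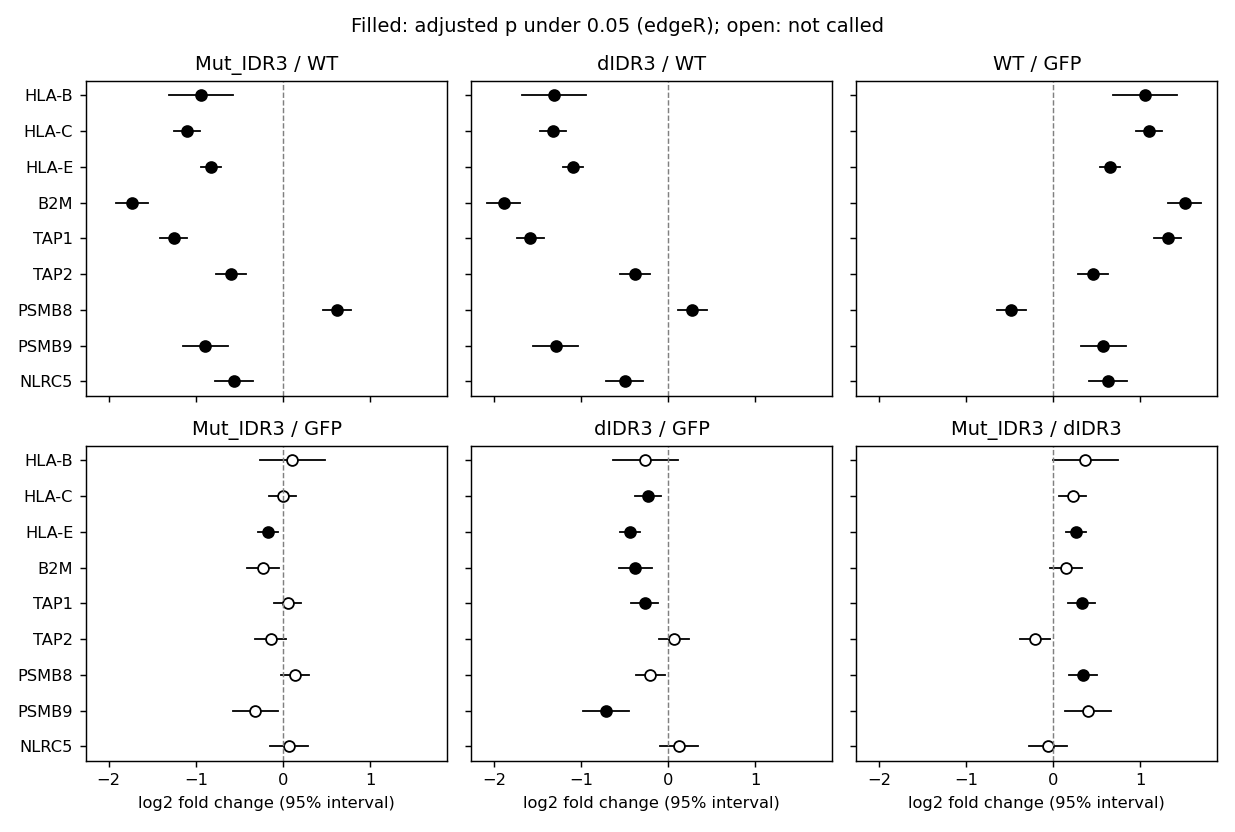
Log2 fold changes of the 9 genes (horizontal axes, with 95% intervals from edgeR) in 6 comparisons, with filled points at an adjusted p under 0.05 and open points otherwise. In WT over GFP 8 genes lie right of 0 and PSMB8 lies left of it at -0.48, whereas in both mutants over WT the order is turned round.

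Ratios of counts within a library compare immunoproteasome with constitutive subunits without any scaling between libraries. They were not corrected for transcript length or GC content and so do not give the balance of the subunits. The longest annotated transcripts have 2373 (PSMB8), 1294 (PSMB5), 2676 (PSMB9) and 871 bases (PSMB6). GC content was 53.8 and 51.9% for PSMB8 and PSMB5, 46.9 and 54.5% for PSMB9 and PSMB6, and 60.1 and 49.9% for PSMB10 and PSMB7. No ratio was computed with the GC trend removed. PSMB8 counts were 21.3 ± 0.569% of PSMB5 counts in Mut_IDR3 cells, 16.9 ± 1.22% in dIDR3 cells, 12.5 ± 1.60% in WT cells and 21.8 ± 2.25% in GFP cells (SD, n = 3 each). WT libraries were lowest without overlap, and Mut_IDR3 and GFP libraries overlapped. On the log2 scale, WT minus GFP was -0.81, Mut_IDR3 minus WT was 0.78 and dIDR3 minus WT was 0.45, each with a two-sided exact permutation p of 0.1, the smallest that 3 against 3 libraries allow, and of 0.138 after adjustment over the 18 ratio comparisons. The constitutive partner PSMB5 itself rose in WT over GFP by 0.32 on the log2 scale (adjusted p = 0.000165 by edgeR), so that the ratio differed more than PSMB8 did.

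PSMB9 counts were 7.10 ± 1.11% of PSMB6 counts in Mut_IDR3 cells, 6.31 ± 0.706% in dIDR3 cells, 11.7 ± 0.860% in WT cells and 10.4 ± 1.24% in GFP cells (SD, n = 3 each). Here WT and GFP libraries overlapped (log2 difference 0.17, two-sided exact permutation p = 0.3), while both mutants lay below WT and GFP without overlap. PSMB6 had risen in WT over GFP by 0.40 on the log2 scale (adjusted p = 1.06e-05 by edgeR), close to the rise of PSMB9. PSMB10, the remaining immunoproteasome catalytic subunit, was at 10.98 ± 0.307% of PSMB7 in Mut_IDR3 cells, 7.91 ± 0.0654% in dIDR3 cells, 12.3 ± 1.01% in WT cells and 13.3 ± 0.814% in GFP cells. For this pair dIDR3 was the group that stood apart, below the 9 other libraries, with log2 differences of -0.63 from WT and -0.74 from GFP (two-sided exact permutation p = 0.1 each). The ratio of PSMB9 to PSMB8, chosen after the values were seen, was 32.3 ± 4.58% in Mut_IDR3 cells, 31.3 ± 5.36% in dIDR3 cells, 92.6 ± 2.37% in WT cells and 44.4 ± 1.90% in GFP cells.

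**Figure D3:**
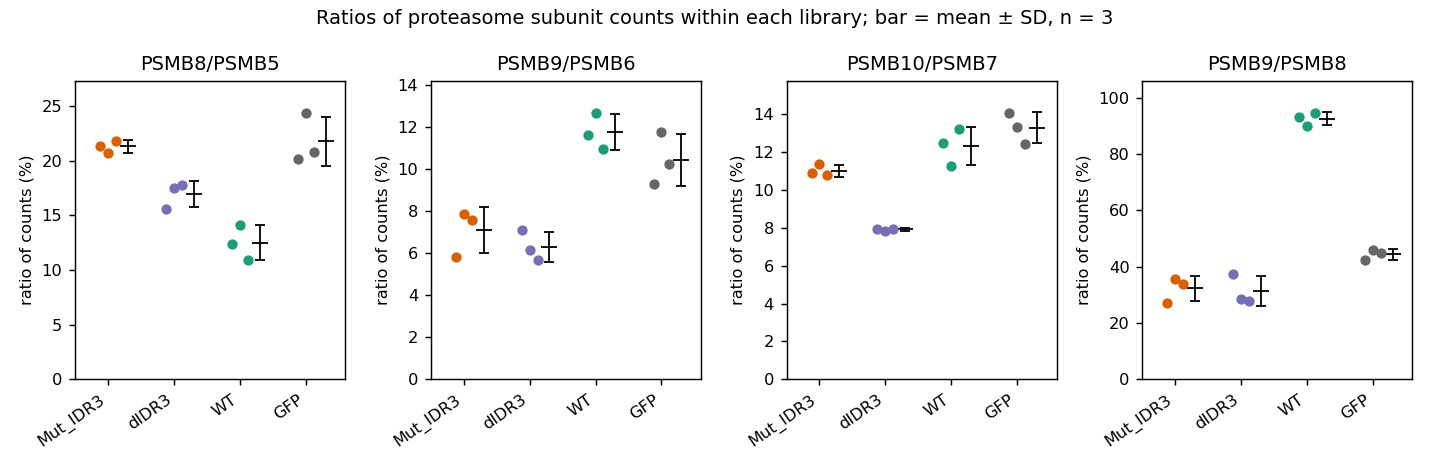
Within-library ratios of counts in percent (vertical axes from 0), by group, with each library as a point and the mean ± SD of 3 libraries. PSMB8 relative to PSMB5 is lowest in WT cells (12.5%), and PSMB10 relative to PSMB7 is lowest in dIDR3 cells (7.91%).

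NLRC5, a transactivator that is recruited to class I promoters and switches on heavy chains, B2M, TAP1 and PSMB9 together, was higher in WT cells. The gene (ENSG00000140853, chromosome 16, 56989485 to 57083531, plus strand) had 22.2, 25.1 and 23.2 CPM in Mut_IDR3 cells, 22.9, 24.7 and 26.0 CPM in dIDR3 cells, 34.3, 29.4 and 40.1 CPM in WT cells and 21.9, 22.9 and 22.6 CPM in GFP cells. WT was highest without overlap, with the widest spread, and the other 3 groups overlapped. NLRC5 rose 1.54-fold in WT over GFP (log2 0.62, SE 0.10, adjusted p = 9.53e-05), and the log2 fold change was -0.56 for Mut_IDR3 over WT (adjusted p = 0.000426) and -0.50 for dIDR3 over WT (adjusted p = 0.000708). With a trend over GC content removed from each library, the edgeR fit gave log2 0.35 for WT over GFP (adjusted p = 0.00211) and -0.27 for dIDR3 over WT (adjusted p = 0.00987).

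For the comparison of WT with GFP, which asks what the unaltered factor does in these cells, 8 of the 9 genes were called higher at an adjusted p under 0.05, against 27.7% of all tested genes, and 1 was called lower, against 27.1% (54.9% in either direction). The libraries of WT and GFP did not overlap for any of the 9 genes, as was the case for 59.4% of all genes. Their median log2 fold change was 0.65, against -0.01 over all tested genes. In Mut_IDR3 over WT, 8 genes were lower (background 20.9%) and 1 higher (23.2%, or 44.1% in either direction), with a median of -0.89 against 0.03. In dIDR3 over WT, 8 were lower (25%) and 1 higher (27.2%, or 52.3% in either direction), with a median of -1.29 against 0.03. Groups did not overlap for any of the 9 genes in either comparison, against 50.7% of all genes for Mut_IDR3 and WT and 55.6% for dIDR3 and WT. These comparisons share the WT libraries, so that they are not independent of each other or of WT over GFP. Because the 9 genes were chosen with earlier results of these data known, their excess over all genes is a description and not a test.

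In Mut_IDR3 over GFP, HLA-E alone was called, with a log2 fold change of -0.17 (95% interval -0.29 to -0.06, adjusted p = 0.0327 by edgeR). This was 1 lower gene of 9, near the background of 9.85%, with 0 higher against 11.2% (21.1% in either direction). The call was lost when Mut_IDR3 replicate 1, 2 or 3 or GFP replicate 1 or 2 was left out. Adjusted p-values were then 0.0533, 0.0674, 0.126, 0.0816 and 0.0782 in that order. With the GC trend removed, HLA-E stayed called and its log2 fold change was larger, at -0.25 (adjusted p = 0.000341 by edgeR). Groups did not overlap for 4 of the 9 genes, against 43.5% of all genes. The 95% interval of the log2 fold change ran from -0.15 to 0.15 for HLA-C, from -0.41 to -0.04 for B2M (adjusted p = 0.0779), from -0.10 to 0.21 for TAP1, from -0.58 to -0.06 for PSMB9 (adjusted p = 0.076) and from -0.15 to 0.28 for NLRC5. With the GC trend removed, the log2 fold change of B2M was 0.01 (adjusted p = 0.957), whereas DESeq2 gave -0.23 (adjusted p = 0.0359) and the fit of only the 2 groups -0.23 (adjusted p = 0.000979). It ran from -0.26 to 0.48 for HLA-B, from -0.32 to 0.03 for TAP2 and from -0.03 to 0.30 for PSMB8. For each of the 9 genes, the log2 fold change of WT over GFP lay outside this interval.

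In dIDR3 over GFP, 5 of the 9 genes were lower, against 13.4% of all genes, and 0 higher, against 15.6% (29% in either direction). PSMB9 had the largest fall, by 0.72 on the log2 scale (adjusted p = 0.000554 by edgeR), followed by HLA-E with a fall by 0.44 (adjusted p = 3.28e-05). B2M fell by 0.37 (adjusted p = 0.00459) and TAP1 by 0.27 (adjusted p = 0.0126). HLA-C fell by 0.23 (adjusted p = 0.0257). The B2M call did not hold with the GC trend removed, where its log2 fold change was -0.22 (adjusted p = 0.0787), and the HLA-C call was lost without dIDR3 replicate 2 or GFP replicate 1 or 2, with adjusted p-values of 0.0827, 0.0601 and 0.0541. HLA-B (log2 -0.26, adjusted p = 0.282), PSMB8 (-0.20, adjusted p = 0.0602), NLRC5 (0.12, adjusted p = 0.389) and TAP2 (0.07, adjusted p = 0.547) were not called. PSMB8 was called lower under several alternatives, among them DESeq2 (adjusted p = 0.0293), limma-voom (0.0478), upper-quartile scaling (0.0437) and removal of the GC trend (0.0469). The groups did not overlap for 7 of the 9 genes, against 47% of all genes.

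Set directly against each other at similar mean TFAP2B RNA counts, Mut_IDR3 cells held more HLA-E, TAP1 and PSMB8 RNA than dIDR3 cells. Levels of the TFAP2β protein are not known from these data. The log2 fold changes of Mut_IDR3 over dIDR3 were 0.27 for HLA-E (adjusted p = 0.00634), 0.33 for TAP1 (adjusted p = 0.0114) and 0.34 for PSMB8 (adjusted p = 0.0115). That is 3 of 9 genes higher, against 5.54% of all genes, and 0 lower, against 5.24% (10.8% in either direction). The PSMB8 call was lost without Mut_IDR3 replicate 2 (adjusted p = 0.052). PSMB9 (0.40, 95% interval 0.14 to 0.66, adjusted p = 0.0514) and HLA-C (0.22, 0.07 to 0.37, adjusted p = 0.0572) did not pass the threshold, and the intervals for B2M (-0.03 to 0.33), TAP2 (-0.39 to -0.04, adjusted p = 0.108) and NLRC5 (-0.28 to 0.16) do not show that the mutants act alike. Groups did not overlap for 6 of the 9 genes, against 34.3% of all genes.

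Per kilobase of the longest annotated transcript, the order of the levels differed between groups at its top. The place of a gene in this order depends on the length taken, and no other length was tried. In Mut_IDR3 cells, HLA-E led with 121.7 CPM per kb, ahead of B2M with 104.9, and HLA-B was last with 2.74. In dIDR3 cells, HLA-E (101.2 CPM per kb) and B2M (94.5) came first with overlapping libraries, and TAP1 and TAP2 overlapped as well. In WT cells, B2M led with 348.9 CPM per kb, ahead of HLA-E with 215.5, and HLA-B and NLRC5 overlapped at the bottom with 5.26 and 5.07. In GFP cells, HLA-E led with 137.3 CPM per kb, ahead of B2M with 122.5, and HLA-B was last with 2.54. PSMB8 stood above TAP1 and TAP2 in the Mut_IDR3, dIDR3 and GFP groups, and below both in WT cells.

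HLA-F, a nonclassical heavy chain, had 66.4, 68.3 and 63.1 CPM in Mut_IDR3 cells, 57.2, 53.8 and 52.3 CPM in dIDR3 cells, 135, 124 and 129.6 CPM in WT cells and 76.7, 73.5 and 70.3 CPM in GFP cells. The 4 groups did not overlap in any pair, with WT highest and dIDR3 lowest. Its log2 fold change was 0.82 in WT over GFP (adjusted p = 3.73e-08 by edgeR), -0.98 in Mut_IDR3 over WT (adjusted p = 9.5e-09) and -1.25 in dIDR3 over WT (adjusted p = 5.27e-10). HLA-G had no counts in any library.

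Among 11 genes of peptide loading and trimming, 5 were higher (27.7% of all genes) and 3 lower (27.1%) in WT over GFP, with a median log2 fold change of 0.07. With the GC trend removed, 7 genes of the list were higher and 2 lower, with a median of 0.40. For this and the later lists, shares over all genes after that removal are not given. Tapasin (TAPBP), which bridges TAP and the empty heavy chain, had the clearest rise, with 65.1, 68.2 and 70.2 CPM in Mut_IDR3 cells, 49.8, 50.9 and 45.8 CPM in dIDR3 cells, 127, 123 and 147 CPM in WT cells and 66.2, 63.6 and 64.5 CPM in GFP cells. WT libraries were highest and dIDR3 libraries lowest, without overlap. Its log2 fold change was 1.03 for WT over GFP (adjusted p = 1.8e-08 by edgeR), -0.96 for Mut_IDR3 over WT (adjusted p = 5.32e-08), -1.44 for dIDR3 over WT (adjusted p = 6.25e-10) and -0.41 for dIDR3 over GFP (adjusted p = 0.000564). The peptide editor TAPBPL also rose in WT over GFP (log2 1.20, adjusted p = 6.14e-05). The chaperones of the loading complex rose less, CALR by 0.58 (adjusted p = 1.83e-07) and PDIA3 by 0.44 (adjusted p = 1.61e-06). BCAP31, a membrane protein of the endoplasmic reticulum, rose by 0.56 (adjusted p = 2.05e-07). Mut_IDR3 and dIDR3 cells were also called above GFP cells for CALR (0.21 and 0.46) and BCAP31 (0.33 and 0.26), but not for PDIA3. CALR was not called in dIDR3 over WT (-0.12, adjusted p = 0.0522). UGGT1, 1 of the 3 lower genes, was at -0.42 in WT over GFP (adjusted p = 7.66e-06) and at 0.37 in dIDR3 over WT (adjusted p = 2.84e-05). In Mut_IDR3 over WT, 6 genes of the list were lower (20.9% of all genes) and 2 higher (23.2%), with a median of -0.27. In dIDR3 over WT, 6 were lower (25% of all genes) and 4 higher (27.2%), with a median of -0.30. With the GC trend removed, 7 were lower and 1 higher in Mut_IDR3 over WT (median -0.29), and 6 were lower and 2 higher in dIDR3 over WT (median -0.15). The BCAP31 calls of both mutants against WT were then lost.

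Among the other proteasome genes, smaller rises and falls were seen. Of PSMB10, PSME1, PSME2 and POMP, 3 were higher in WT over GFP, against 27.7% of all genes. PSMB10 rose by 0.33 (adjusted p = 0.00113 by edgeR), and the activator subunits PSME1 by 0.28 (adjusted p = 0.000144) and PSME2 by 0.22 (adjusted p = 0.0113). The PSMB10 and PSME2 calls did not hold with the GC trend removed, with log2 fold changes of 0.09 (adjusted p = 0.271) and 0.08 (adjusted p = 0.363). In dIDR3 over GFP, PSMB10, PSME1 and PSME2 were lower, against 13.4% of all genes. PSMB10 had a fall by 0.60 (adjusted p = 3.18e-05) and PSME1 a fall by 0.50 (adjusted p = 4.15e-06). Of 14 constitutive core subunits, 7 were higher (27.7% of all genes) and 3 lower (27.1%) in WT over GFP (median 0.14). Of 18 subunits of the regulatory particle, 10 were higher and 6 lower (median 0.15), against the same shares of all genes. With the GC trend removed these counts were 9 higher and 0 lower for the core and 11 higher and 2 lower for the regulatory particle.

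**Figure D4:**
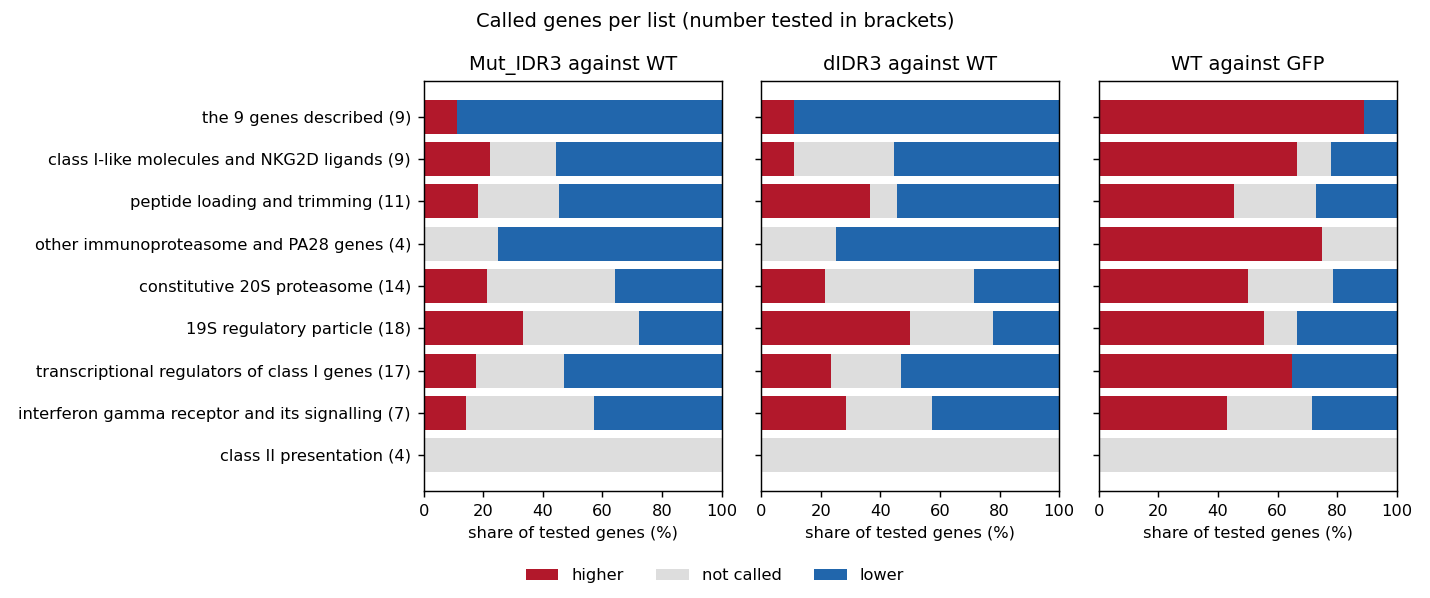
Share of the tested genes of each list (horizontal axes, percent) called higher (red), lower (blue) or not called (grey) at an adjusted p under 0.05, in Mut_IDR3 over WT, dIDR3 over WT and WT over GFP. The 9 genes described here have 8 higher and 1 lower in WT over GFP, and the class II list has 0 called in the 3 comparisons shown. Over all tested genes, 27.7% were higher and 27.1% lower in WT over GFP.

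Of 17 tested regulators of class I genes, 11 were higher (27.7% of all genes) and 6 lower (27.1%) in WT over GFP (median 0.30). With the GC trend removed, 10 were higher and 1 lower. IRF1, which binds interferon response elements, had 45.3, 49.4 and 48.6 CPM in Mut_IDR3 cells, 33.3, 32.0 and 32.2 CPM in dIDR3 cells, 158, 144 and 157 CPM in WT cells and 53.0, 55.4 and 52.3 CPM in GFP cells. WT libraries were highest, and dIDR3 libraries lowest, without overlap. IRF1 rose in WT over GFP by 1.52 on the log2 scale (adjusted p = 5.94e-11 by edgeR), and its log2 fold change was -1.68 for Mut_IDR3 over WT (adjusted p = 1.91e-11), -2.24 for dIDR3 over WT (adjusted p = 8.02e-13) and -0.72 for dIDR3 over GFP (adjusted p = 9.43e-07). Whether IRF1 has a part in the changes of the 9 genes was not tested.

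STAT2, part of an interferon-activated complex with IRF9, rose by 0.84 in WT over GFP (adjusted p = 4.9e-07 by edgeR) and was lower by -1.03 in Mut_IDR3 over WT (adjusted p = 1.18e-07) and by -1.34 in dIDR3 over WT (adjusted p = 5.4e-09). STAT2 was lower than GFP in dIDR3 cells (-0.50, adjusted p = 0.000329) and not called in Mut_IDR3 cells (-0.19, adjusted p = 0.108, or -0.22 and 0.0495 with the GC trend removed). The NF-kappa B subunit RELA rose by 0.84 in WT over GFP (adjusted p = 4.6e-07). EZH2, the histone methyltransferase known to silence class I genes in some tumours, moved the other way, with a log2 fold change of -0.23 for WT over GFP (adjusted p = 0.0219), 0.48 for Mut_IDR3 over WT (adjusted p = 0.000191) and 0.73 for dIDR3 over WT (adjusted p = 2.6e-06), although the call of WT over GFP was lost and its sign turned with the GC trend removed (0.14, adjusted p = 0.135). RFX5, a subunit of the complex that recruits NLRC5, was named after its values were seen and rose by 0.30 in WT over GFP (adjusted p = 0.0053). The Y box factor NFYB was at -0.84 in WT over GFP (adjusted p = 5.56e-06), and at -0.12 (adjusted p = 0.266) with the GC trend removed.

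Of 7 genes of the interferon gamma receptor and its signalling, 3 were higher and 2 lower in WT over GFP (median -0.09). These counts are near the shares of all genes, 27.7% higher and 27.1% lower. With the GC trend removed, 3 of the 7 were higher and 0 lower (median 0.21). The feedback inhibitors of JAK kinases rose, SOCS3 by 1.98 (adjusted p = 4.73e-09 by edgeR) and the low-expressed SOCS1 by 3.75 (adjusted p = 6.11e-07). The receptor chain IFNGR2 rose by 0.56 (adjusted p = 4.48e-06), while its partner IFNGR1 was at -0.44 (adjusted p = 0.00025), a call that was lost and turned its sign with the GC trend removed (0.11, adjusted p = 0.307). In dIDR3 over WT, IFNGR2 was at -0.99 (adjusted p = 2.06e-08), and in Mut_IDR3 over WT at -0.62 (adjusted p = 3.89e-06).

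**Figure D5:**
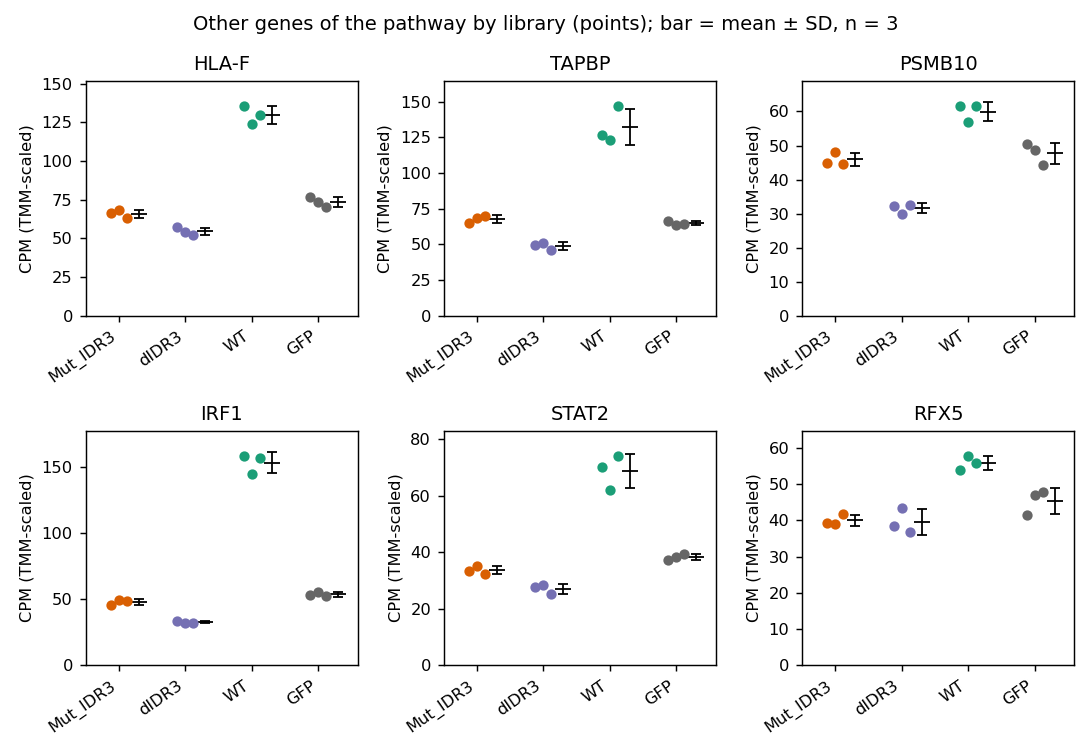
Levels in CPM (vertical axes from 0) of 6 pathway genes outside the group, by library, with the mean ± SD of 3 libraries. IRF1 averaged 153 CPM in WT cells and 53.6 CPM in GFP cells, and STAT2 averaged 68.7 CPM in WT cells and 38.3 CPM in GFP cells.

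Across the 12 libraries, which share the same 4 groups and so move together wherever the groups differ, Pearson's r of log2 CPM between HLA-C and TAP1 was 0.986, and PSMB8 was negatively related to each of the other 8 genes. Among genes of at least 5 mean CPM, the pattern of HLA-E was most like that of HLA-F (r = 0.994), STAT2 (0.991) and KRT17 (0.990). TAP1 was most like NFKB2 (0.993), PIM1 (0.991) and SDC4 (0.990), HLA-C was most like RPL13, ICAM1 and KRT6A (0.994 each), and B2M was most like B4GALT5 (0.990), SMIM3 (0.990) and TFAP2A (0.989). PSMB8 was most like SAMD12 (0.965), TP63 (0.936) and CTSH (0.935). These are descriptions over 12 libraries in 4 groups and carry no test.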

How the data were processed

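RNA of 12 libraries was measured, 3 in each of 4 groups. The authors deposited raw counts per gene, which were used as they stand. Per the submitters' processing notes, the tools were Trim Galore, HISAT2 and StringTie, and the build was GRCh38/hg38. For versions, counting program, annotation and strand, the entry is "not given in the sources used here". Coordinates and transcript lengths are from GENCODE on GRCh38, and promoters are from RefSeq on GRCh38.p14.

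Of 24302 features, 14792 passed filterByExpr. Counts were scaled by TMM and tested with edgeR 4.0.16 (R 4.3.3), with 1 quasi-likelihood model over the 4 groups (8 residual degrees of freedom). P-values were Benjamini-Hochberg adjusted over all tested genes, and 0.05 was the threshold for a call. Log2 CPM used a prior count of 2. Ratios of subunits were compared with exact permutation tests. On simulated counts for WT against GFP (14792 genes), the test called 47.0%, 65.5% and 89.8% of genes changed 1.5-, 2- and 4-fold and 0.0411% of unchanged genes. The changed genes numbered 83, 58 and 59, in that order, far fewer than the 8118 called in the data. Both rates depend on that share under the adjustment used, so that they do not give the rates in these data. With a simulated GC trend added, 29.1% of 12724 unchanged genes were called before and 0% after its removal, which was built on the same GC values.

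The 9 genes and all lists were chosen with earlier results of these data known. All 9 are named. From each list up to 4 genes with the lowest adjusted p in WT over GFP and up to 2 called in a mutant could be named, and from likeness the 3 genes with the highest r. Lists are described by counts and medians, and some listed genes are not reported here. The alternatives were other scalings (median ratio, upper quartile, library sizes without mitochondrial genes), other filters, DESeq2 1.42.0, limma-voom (limma 3.58.1), only the 2 groups compared, the replicate number as a block, removal of a GC trend, an adjusted p under 0.01 and each library left out.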

Additional observations from a re-analysis of the deposited data

How the results depend on the processing

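In WT over GFP and in Mut_IDR3 over WT, 8 genes in the main direction and PSMB8 in the opposite one were called under every alternative run, as were the 8 lower genes of dIDR3 over WT. No log2 fold change of the 9 genes turned its sign where it was called. Sizes did move. With the GC trend removed, the log2 fold change of WT over GFP was 2.03 for B2M, 1.03 for TAP1, 0.84 for HLA-C and 0.82 for HLA-B. It was 0.64 for PSMB9, 0.45 for HLA-E, 0.41 for TAP2, 0.35 for NLRC5 and -0.65 for PSMB8. For B2M, TAP1, HLA-C, HLA-E, NLRC5 and PSMB8 these values lay outside the 95% interval of the main fit (for B2M 1.32 to 1.70). In dIDR3 over WT the number called higher (1, PSMB8) ranged from 0 to 1 with single libraries left out. In Mut_IDR3 over GFP the number called lower (1, HLA-E) was 2 with no filter, 3 with DESeq2, 3 with only the 2 groups compared and 0 at an adjusted p under 0.01, and ranged from 0 to 2 with single libraries left out; all genes called were 1349 at an adjusted p under 0.01 and ranged from 1566 (without Mut_IDR3 replicate 2) to 3796 (without WT replicate 2), against 3114. In dIDR3 over GFP, the number called lower was 3 at an adjusted p under 0.01, and all genes called were 2506, against 4294. In Mut_IDR3 over dIDR3, the number called higher (3) was 5 with median-ratio scaling, 5 with upper-quartile scaling, 5 without mitochondrially encoded genes, 5 with no filter, 5 with 1 CPM in 3 libraries, 5 with DESeq2, 5 with only the 2 groups compared and 1 at an adjusted p under 0.01, and ranged from 2 to 5 with single libraries left out; all genes called were 596 at an adjusted p under 0.01 and ranged from 819 (without Mut_IDR3 replicate 2) to 2265 (without WT replicate 2), against 1594. The causes were not tested. The log2 ratio of PSMB8 to PSMB5 in Mut_IDR3 minus GFP, -0.03, ranged from -0.0801 to 0.0555 and turned its sign without GFP replicate 2.

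Same-numbered libraries did not deviate together (18 correlations from -0.0682 to 0.0762, 0 of them over 0.1). The numbers thus gave no sign of a pairing, although such correlations cannot exclude a weak one. With the replicate block, 0 of the 9 genes were called lower in Mut_IDR3 over GFP. HLA-E was at -0.17 there (adjusted p = 0.0515 by edgeR), or at -0.25 with the GC trend removed as well (adjusted p = 0.00153). The counts of the 9 genes in the other comparisons stayed within 1.5 times with the block. HLA-B, at 2.78 to 8.58 CPM, has the widest intervals of the group.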

Other observations

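Molecules related to class I changed with WT as well. Of 9 tested class I-like genes and ligands of the NKG2D receptor of natural killer cells, 6 were higher and 2 lower in WT over GFP. The shares over all genes were 27.7% and 27.1%, in that order. The median log2 fold change of the 9 was 0.90. RAET1L, an NKG2D ligand, had 0.257, 0.86 and 0.186 CPM in Mut_IDR3 cells, 0.773, 0.753 and 0.895 CPM in dIDR3 cells, 17.3, 18.7 and 15.8 CPM in WT cells and 0.435, 0.745 and 0.416 CPM in GFP cells. It was close to absent outside WT cells, and its log2 fold change was 5.03 for WT over GFP (adjusted p = 4.72e-08 by edgeR), -5.30 for Mut_IDR3 over WT (adjusted p = 5.32e-08) and -4.41 for dIDR3 over WT (adjusted p = 1.19e-07). MICA, another NKG2D ligand, rose by 0.90 in WT over GFP (adjusted p = 1.86e-07). The iron regulator HFE fell by 0.60 (adjusted p = 2.49e-05), and MR1, which presents vitamin B metabolites, fell by 0.85 (adjusted p = 0.00023).

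Of 15 listed genes of class II presentation, 4 passed the filter and 0 were called in any of the 6 comparisons by edgeR. Of all tested genes, 10.8% (Mut_IDR3 over dIDR3) to 54.9% (WT over GFP) were called in either direction. CIITA, the class II counterpart of NLRC5, was at -0.55 in WT over GFP (adjusted p = 0.0608). With the GC trend removed it was called, at -0.70 in WT over GFP (adjusted p = 0.0229) and at 0.67 in dIDR3 over WT (adjusted p = 0.0269). IFI30, a lysosomal thiol reductase, split the libraries within groups: it had 9.55, 121 and 113 CPM in Mut_IDR3 cells, 113, 3.69 and 109 CPM in dIDR3 cells, 168, 154 and 174 CPM in WT cells and 132, 18.8 and 127 CPM in GFP cells. Mut_IDR3 replicate 1, dIDR3 replicate 2 and GFP replicate 2 were low, and the cause was not tested.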
